A study of Mus musculus with 14 samples.

Results

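RNA of ileum crypts that carry or lack the transcription factor gene Atoh1 was compared across all expressed genes. The comparison takes 4 of the 14 mouse libraries of the series, chosen by their titles: 2 knockout (KO) and 2 control libraries, the latter titled WT. The KO crypts came from Atoh1lox/lox;VilCreERT2 mice, in which both Atoh1 alleles are floxed. The WT crypts came from Atoh1lox/WT;VilCreERT2 littermates, so the controls carry 1 floxed allele and the same recombinase. All mice were 6-8 weeks old, and the crypts were taken from the distal small intestine. VilCreERT2 is a drug-inducible Cre recombinase driven by the Villin promoter, which is active throughout the intestinal epithelium; how it was induced, and how long before the crypts were taken, is not given in the sources used here. Nor is it stated which library came from which animal, so p-values measure the spread between these libraries, which may be in part technical. The remaining libraries are 4 from colon crypts of the same genotypes, used below for comparison, and 6 from sorted Atoh1-GFP cells.

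Intestinal stem cells at the crypt base give rise to absorptive enterocytes and to secretory cells. Atoh1 encodes the basic helix-loop-helix factor that commits progenitors to the secretory fate, and Notch signalling between neighbouring cells keeps it off in the absorptive lineage through the repressor Hes1. The secretory cells of the ileum are goblet cells, which make mucus, Paneth cells, which sit among the stem cells and release antimicrobial peptides and niche signals, and enteroendocrine cells, which release hormones. Tuft cells are chemosensory cells whose dependence on Atoh1 has been described differently between studies. In crypts measured in bulk, fewer cells of a type and less RNA per cell cannot be told apart.

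The 4 libraries held 9645245 to 10426027 counts in genes and were thus close in depth. Levels are given in CPM, a gene's count brought to the same library total in every library, scaled by edgeR's trimmed mean of M-values over the 8 crypt libraries. Epithelial genes were abundant in each library: Epcam, a surface protein of epithelial cells, was present at 2253 and 1706 CPM in the WT libraries and 2509.8 and 2545 CPM in the KO libraries. Fabp6, the ileal bile acid binding protein, was present at 2888 and 1384 CPM in the WT libraries and 2485 and 3199.6 CPM in the KO libraries, and Hoxb13, a gene of the distal colon, at no more than 0.103 CPM. The sex-linked genes differed within the KO group. Xist, the transcript that coats an inactive X chromosome, had 3.39 CPM in KO 1 and 1151 CPM in KO 2, against 3.81 and 6.88 CPM in the WT libraries, while the Y-linked Ddx3y had 50.8 CPM in KO 1 and 0.0993 CPM in KO 2. Ddx3y had 55 and 44.2 CPM in the WT libraries. KO 2 thus had the pattern of female RNA and the other 3 libraries that of male RNA, while the labels give no sex. By these genes the KO pair mixes the sexes and the WT pair does not, and the part of sex in the results was not tested.

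The WT libraries differed from each other more than the KO libraries did. Of 14415 genes tested, 552 lay at least 4-fold apart between WT 1 and WT 2 and 57 between KO 1 and KO 2. Among the genes that WT 2 had at far higher levels, Pla2g2a, a secreted phospholipase of Paneth cells, went from 82.4 CPM in WT 1 to 9605 CPM in WT 2, Reg4 from 22.7 to 2683 CPM, and Retnlb, a goblet antimicrobial protein, from 15.4 to 969 CPM. Higher in WT 1 were genes of plasma cells, with Igkc at 532 against 5.70 CPM and Jchain at 259 against 3.55 CPM, and Plet1 at 179 against 0.430 CPM. The inducible antimicrobial list as a whole, which holds Reg4 and Retnlb, was not higher in WT 2 (15 of 36 genes, median log2 ratio -0.43). Of the 33 tuft cell genes tested, 31 were higher in WT 2 than in WT 1 (median log2 ratio 2.46), and of 40 immune cell genes 1 was (median log2 ratio -2.33). The summed level of the immune list was 1013 and 164.2 CPM in WT 1 and WT 2 and 624.1 and 513.8 CPM in KO 1 and KO 2, so the KO libraries lay between the WT libraries. The part of these differences in the results was not tested beyond the values given without each library.

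**Figure D1:**
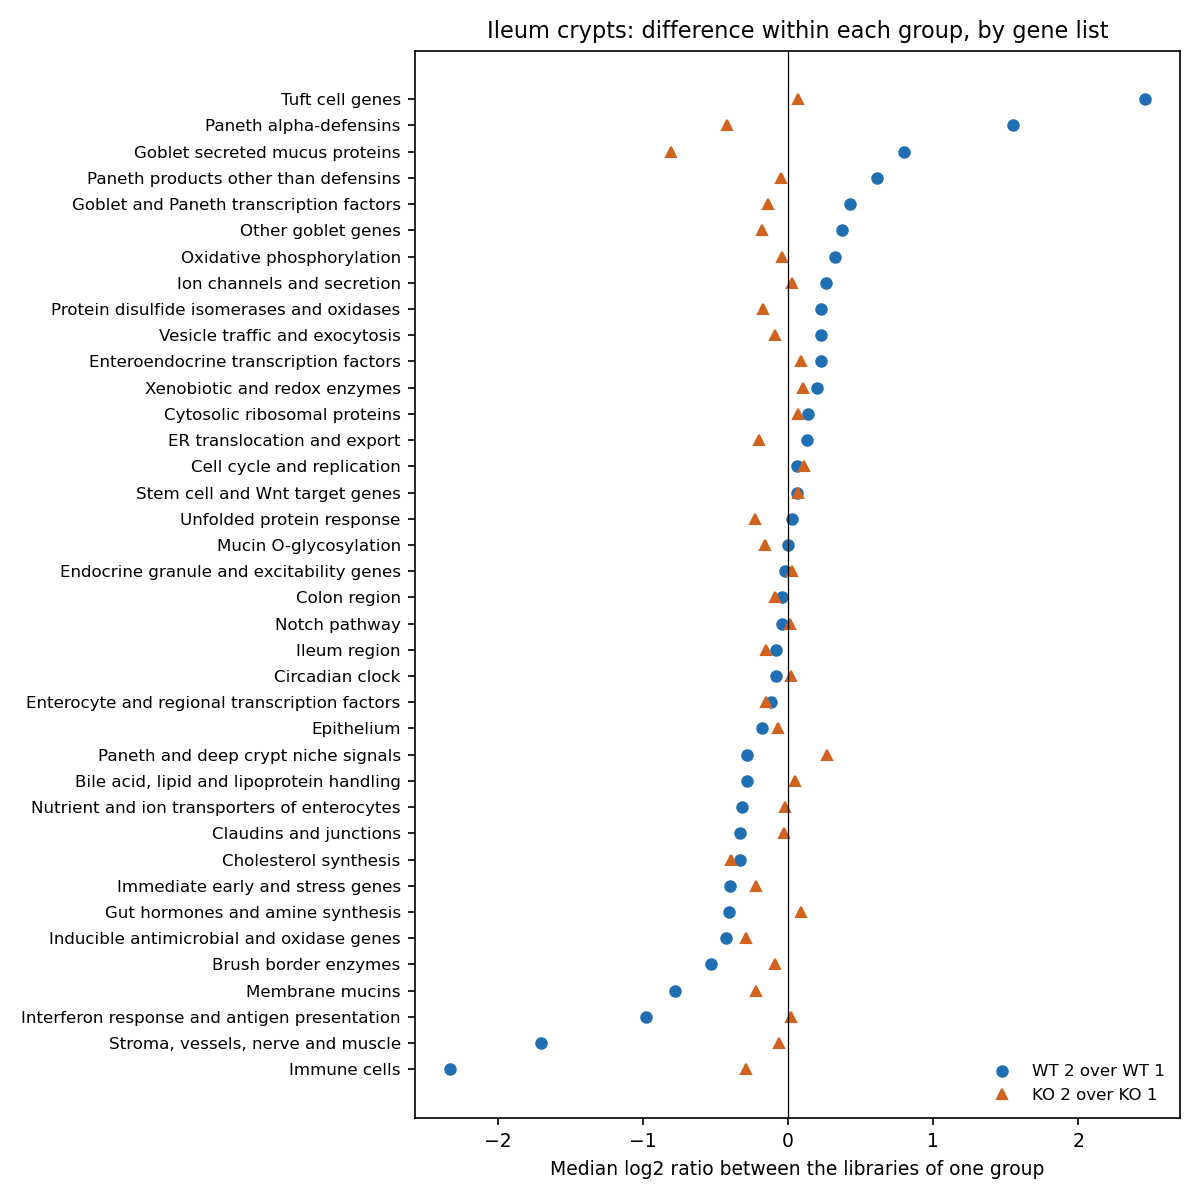
For each gene list, the median log2 ratio of WT 2 over WT 1 (circles) and of KO 2 over KO 1 (triangles) in ileum crypts; each point is a median over the list's tested genes. The WT libraries part most for tuft cell genes (2.46) and immune cell genes (-2.33), where the KO libraries lie close to 0.

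A gene was called when edgeR's quasi-likelihood test on the counts of the 8 crypt libraries gave a Benjamini-Hochberg adjusted p under 0.05 over the 14415 genes. In ileum KO crypts 176 genes were called, 1.22% of those tested, with 157 lower (1.09%) and 19 higher (0.132%). At an unadjusted p under 0.05 there were 1929 genes (13.4%), and the median log2 fold change of all genes was 0.01. The falls were large and the rises small. Of the 157 genes called lower, 139 were at least 2-fold lower, 74 at least 8-fold and 21 at least 32-fold, with a median log2 fold change of -2.83. The 19 genes called higher had a median of 0.94 and a range from 0.54 to 1.76. Together the genes called lower took 1.59% and 2.67% of the gene counts in WT 1 and WT 2, and 0.28% and 0.25% in KO 1 and KO 2. Without overlap between the groups, and with no test, 2634 genes were lower in both KO libraries (18.3%) and 3192 were higher (22.1%), so a lack of overlap alone was common. Nearest libraries at least 2-fold apart were rarer, at 314 genes lower (2.18%) and 30 higher (0.208%), and all 114 genes with nearest libraries at least 4-fold apart were lower (0.791%). The count of calls depended on which libraries were in the fit. A fit with 1 ileum library left out leaves 1 library in its group, without a spread of its own. Its counts of calls are therefore not comparable with the 176, nor with the shares above. None of the 176 genes changed sign in these fits. A fit of the 4 ileum libraries alone called 4 genes, all lower, and DESeq2 on the 8 crypt libraries called 503. The genes of the 176 that stayed called whichever single ileum library was left out were few. They were Atoh1, Ano7, Bcas1, Ccl6, Gcg, Hepacam2, Lrrc26, Tff3 and 1 gene given no symbol, all lower, and Gprc5a, higher.

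**Figure D2:**
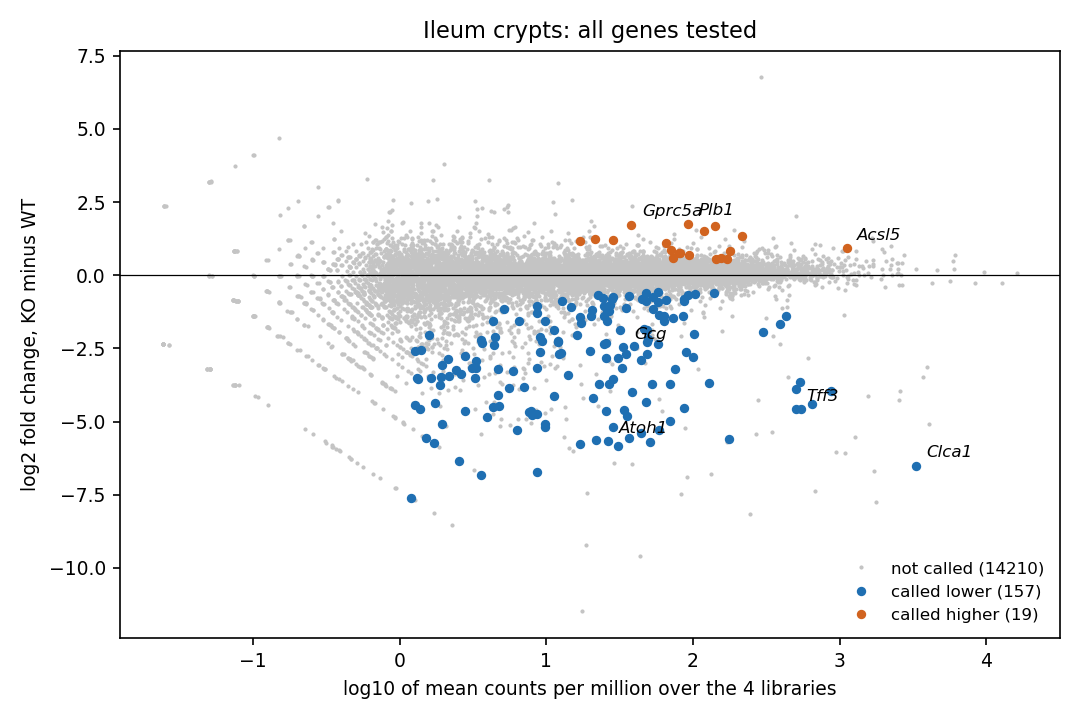
Log2 fold change, KO minus WT, against the log10 of the mean CPM over the 4 ileum crypt libraries, for 14386 tested genes with a count there; blue points are the 157 genes called lower and orange points the 19 called higher. The genes called lower reach far from 0 over most of the range of levels, while those called higher lie between 0.54 and 1.76.

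Atoh1 itself checked the labels. It had 52.5 and 51.2 CPM in the WT libraries and 1.34 and 0.695 CPM in the KO libraries. Both KO libraries lay far below both WT libraries, and Atoh1 fell by 5.66 on the log2 scale (SE 0.286, edgeR adjusted p = 0.000744), or 50.7-fold; the deposited counts are per gene and do not show which exons the remaining reads cover. In the Notch pathway, 2 of 27 genes tested were called lower, Atoh1 and Dll1, where 1.09% of all genes were. The median was 0.04. Dll1, a Notch ligand made by secretory cells, had 31.4 and 25.8 CPM in the WT libraries and 10.4 and 14.6 CPM in the KO libraries, with no overlap (log2 fold change -1.20, SE 0.199, edgeR adjusted p = 0.0442). Hes1, the Notch target that represses Atoh1, had 42.1 and 48.9 CPM in the WT libraries and 39.2 and 38.3 CPM in the KO libraries, and Rbpj, the nuclear partner of Notch, had 15.5 and 11 CPM in the WT libraries and 15.8 and 6.06 CPM in the KO libraries; neither was called. Notch1 and Lfng, a receptor and a glycosyltransferase that modifies Notch, were higher in both KO libraries without a call. Notch1 had 42 and 47.9 CPM in the WT libraries and 74.9 and 90.2 CPM in the KO libraries (edgeR adjusted p = 0.192) and Lfng had 14.5 and 21.8 CPM in the WT libraries and 30.9 and 38.8 CPM in the KO libraries (edgeR adjusted p = 0.119). Dll4, the other Notch ligand of secretory cells, overlapped between groups, at 30.4 and 19.1 CPM in the WT libraries and 26.9 and 23.8 CPM in the KO libraries.

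Of 18 transcription factors of goblet and Paneth cells tested, 5 fell (1.09% of all genes did) and none rose, with a median of -0.92. Spdef, which drives goblet and Paneth maturation, had 54.2 and 119 CPM in the WT libraries and 2.67 and 1.49 CPM in the KO libraries. WT 2 was the highest library, and both WT values stood far above the KO values (log2 fold change -5.38, SE 0.522, edgeR adjusted p = 0.0142). Gfi1, a zinc-finger repressor downstream of Atoh1, had 15.1 and 15.8 CPM in the WT libraries and 1.95 and 1.49 CPM in the KO libraries (log2 fold change -3.16, SE 0.362, edgeR adjusted p = 0.0144). Cbfa2t3, a corepressor of the MTG family, had 17.7 and 25.3 CPM in the WT libraries and 1.23 and 1.19 CPM in the KO libraries (log2 fold change -4.13, SE 0.292, edgeR adjusted p = 0.0026). In these 3 genes the libraries of a group lay closer together than the groups did. Bhlha15, the Mist1 factor of secretory cells, fell by 3.18 on the log2 scale (edgeR adjusted p = 0.0385) and Creb3l4, a membrane-bound factor of the endoplasmic reticulum, by 4.18 (edgeR adjusted p = 0.0279). Foxa3 (WT libraries 33.4 and 61.5 CPM, KO libraries 14 and 15.3 CPM) and Creb3l1 (WT libraries 93.2 and 149 CPM, KO libraries 43.5 and 48.3 CPM) were lower without overlap but not called, with edgeR adjusted p = 0.0983 and 0.0598. Xbp1, Klf4, Foxa1 and Elf3, which are not restricted to secretory cells, had log2 fold changes of -0.29, 0.08, -0.20 and -0.07. The median of the list was -0.9 without KO 1, -0.98 without KO 2, -1.18 without WT 1 and -0.57 without WT 2.

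Atoh1 binds E-boxes, so the bases before the start site of genes that fell were searched for CAGCTG and CAGATG on both strands, the first being its own reverse complement. The windows come from RefSeq promoter entries for GRCm38.p6, a later build than that of the counts, and hold the 250 bases before the start of the first entry listed for a gene; no window was available here for some genes. Of 110 genes called lower with a window, 30 held a match (27.3%), against 2075 of 10238 tested genes (20.3%). CAGATG was held by 15.5% and 9.9% and CAGCTG by 15.5% and 11.7% of them. Among 15 genes called higher, 1 held a match. A match is a description of letters and not a binding site. The windows below, 5′ to 3′ on the gene's strand with the matches in capitals, show 5 regulators, goblet genes and hormones that fell and hold a match, and Spdef, which fell and holds none; they were picked after the matches were seen.
Cbfa2t3, chr8:122699110-122699359, minus strand: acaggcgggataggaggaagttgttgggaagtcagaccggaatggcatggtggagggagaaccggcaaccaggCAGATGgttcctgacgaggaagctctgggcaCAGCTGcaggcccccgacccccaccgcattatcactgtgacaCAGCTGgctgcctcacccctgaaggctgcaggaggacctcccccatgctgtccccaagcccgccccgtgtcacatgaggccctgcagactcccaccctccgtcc
Bhlha15, chr5:144190036-144190285, plus strand: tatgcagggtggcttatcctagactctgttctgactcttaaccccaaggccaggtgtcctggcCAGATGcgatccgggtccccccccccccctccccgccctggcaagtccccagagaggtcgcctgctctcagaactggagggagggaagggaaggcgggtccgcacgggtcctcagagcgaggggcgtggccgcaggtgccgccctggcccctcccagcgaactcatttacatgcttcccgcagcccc
Hepacam2, chr6:3494499-3494748, minus strand: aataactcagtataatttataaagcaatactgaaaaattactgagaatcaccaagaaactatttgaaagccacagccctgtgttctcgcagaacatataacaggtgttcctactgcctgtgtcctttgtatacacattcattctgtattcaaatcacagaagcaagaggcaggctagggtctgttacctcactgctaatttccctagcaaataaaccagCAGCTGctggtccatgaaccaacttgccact
Gcg, chr2:62483654-62483903, minus strand: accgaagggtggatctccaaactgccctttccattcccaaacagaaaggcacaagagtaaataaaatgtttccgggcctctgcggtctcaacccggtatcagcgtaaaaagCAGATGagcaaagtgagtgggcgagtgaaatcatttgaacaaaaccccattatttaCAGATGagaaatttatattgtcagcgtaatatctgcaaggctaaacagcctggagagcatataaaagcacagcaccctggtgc
Cck, chr9:121495695-121495944, minus strand: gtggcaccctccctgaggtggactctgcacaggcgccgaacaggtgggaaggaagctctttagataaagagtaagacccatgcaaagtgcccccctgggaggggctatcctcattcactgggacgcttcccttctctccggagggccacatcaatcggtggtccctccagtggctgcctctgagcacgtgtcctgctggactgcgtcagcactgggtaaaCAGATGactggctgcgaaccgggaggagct
Spdef, chr17:27728952-27729201, minus strand: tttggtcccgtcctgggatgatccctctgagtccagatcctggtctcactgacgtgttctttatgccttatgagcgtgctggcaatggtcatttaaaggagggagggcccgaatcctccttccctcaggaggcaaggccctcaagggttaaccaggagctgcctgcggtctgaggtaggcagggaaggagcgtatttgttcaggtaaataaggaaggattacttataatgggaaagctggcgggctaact
The Cbfa2t3 window holds 3 matches, the most of the 6, and the Gcg window holds 2. In Hepacam2 and Cck the match begins close to the start site, 31 and 30 bases before it.

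Goblet genes made up many of the falls. Of 20 genes tested that were listed as secreted proteins of goblet cells, 8 fell and none rose, where 1.09% of all genes fell. Their median log2 fold change was -4.33, against 0.01 over all genes. Tff3, the trefoil peptide of mucus, had 989 and 947 CPM in the WT libraries and 54.5 and 26.8 CPM in the KO libraries. Its WT values almost coincided and the KO values were far lower (log2 fold change -4.57, SE 0.352, edgeR adjusted p = 0.00484). Clca1, a metalloprotease that processes mucus, had 3188 and 9892 CPM in the WT libraries and 100.1 and 43.9 CPM in the KO libraries (log2 fold change -6.51, SE 0.986, edgeR adjusted p = 0.0467). Agr2, the disulfide isomerase needed for mucin assembly, had 896 and 1566 CPM in the WT libraries and 78.5 and 39 CPM in the KO libraries (log2 fold change -4.39, SE 0.466, edgeR adjusted p = 0.0152). For both, WT 2 was the highest library, and the lower WT library stood more than 10-fold above the higher KO library. Ccl6, a chemokine, had 296 and 392 CPM in the WT libraries and 9.46 and 4.67 CPM in the KO libraries, a 48.7-fold fall (edgeR adjusted p = 0.00273). The chemokine Ccl9, the tryptase Tpsg1, Sval1 and Nupr1 were the other listed members that fell. Nupr1, though in this list, encodes a nuclear protein. Muc2, the gel-forming mucin of the intestine, had 362 and 700.2 CPM in the WT libraries and 43.2 and 12.6 CPM in the KO libraries. The groups were far apart but the libraries within each also differed, and Muc2 was not called (log2 fold change -4.25, SE 0.818, edgeR adjusted p = 0.0884). Fcgbp, which binds Muc2 in the mucus, had 6769.6 and 2965 CPM in the WT libraries and 374 and 129.7 CPM in the KO libraries (edgeR adjusted p = 0.0585) and Zg16, a lectin that binds bacteria, had 1595 and 493 CPM in the WT libraries and 65 and 20.6 CPM in the KO libraries (edgeR adjusted p = 0.0612). Both were highest in WT 1, unlike Clca1, and neither was called. Spink4 had 529 and 3223 CPM in the WT libraries and 36.3 and 20.3 CPM in the KO libraries (edgeR adjusted p = 0.0531). Guca2a and Guca2b, the guanylin peptides, were closer between groups, at log2 fold changes of -1.10 and -0.56, and were not called. The median of the secreted list was -5.2 without KO 1, -3.98 without KO 2, -4.6 without WT 1 and -3.81 without WT 2.

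Of 33 other goblet genes tested, 15 fell, against 1.09% of all genes, and none rose (median -0.93). This list, like the others, was chosen with earlier results of these data known, so its count is a description and no test. Hepacam2, a membrane protein of goblet cells, had 93.9 and 135 CPM in the WT libraries and 3.6 and 2.28 CPM in the KO libraries (log2 fold change -5.28, SE 0.272, edgeR adjusted p = 0.000938). Ano7, an anoctamin of goblet cells, had 50.5 and 60.1 CPM in the WT libraries and 1.64 and 1.39 CPM in the KO libraries (log2 fold change -5.18, SE 0.261, edgeR adjusted p = 0.000744). Bcas1 had 65.8 and 64.2 CPM in the WT libraries and 3.8 and 1.49 CPM in the KO libraries, a 24.6-fold fall with WT values almost equal (edgeR adjusted p = 0.00257). These 3 genes had small spreads within groups beside the distance between them. Capn9, Rep15, Fer1l6 and Hpd fell by 5.82, 5.76, 5.70 and 4.63 on the log2 scale. Lrrc26, a subunit that tunes potassium channels, had 39 and 45.5 CPM in the WT libraries and 4.21 and 2.28 CPM in the KO libraries (log2 fold change -3.70, SE 0.242, edgeR adjusted p = 0.00227). Slc12a8, Ern2 and Sytl2 also fell, by 2.63, 2.27 and 3.73. Ern2 is the goblet-restricted sensor of unfolded protein, whereas its broadly expressed relative Ern1 had 74 and 86.2 CPM in the WT libraries and 72.2 and 74.2 CPM in the KO libraries (log2 fold change -0.13). The median of this list was -1.08 without KO 1, -0.98 without KO 2, -1.16 without WT 1 and -1.0 without WT 2.

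**Figure D3:**
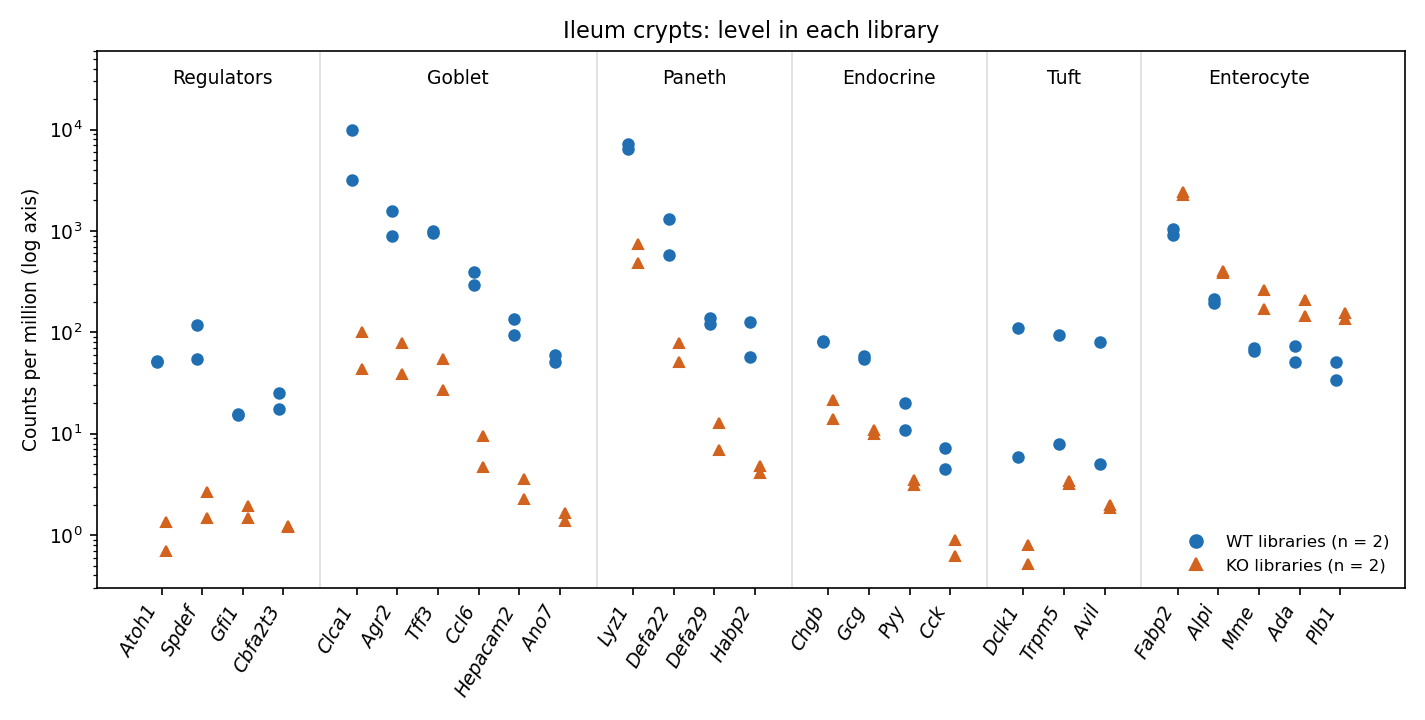
CPM on a log axis in each of the 4 ileum crypt libraries for genes of 6 roles; circles are the WT libraries and triangles the KO libraries. The regulators, goblet, Paneth and endocrine genes shown lie lower in both KO libraries, the tuft genes differ strongly between the WT libraries, and the enterocyte genes shown lie higher in both KO libraries; the genes were picked with their values known.

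Genes of the secretory machinery had small negative medians, with larger falls in a few members. Of 54 genes of translocation into and export from the endoplasmic reticulum, 4 fell (1.09% of all genes did), 31 were lower without overlap (18.3% of all genes were) and the median was -0.22. Kdelr3, a receptor that returns proteins to the endoplasmic reticulum, had 18.3 and 33.4 CPM in the WT libraries and 2.67 and 2.18 CPM in the KO libraries (log2 fold change -3.41, SE 0.375, edgeR adjusted p = 0.0144), while its relatives Kdelr1 and Kdelr2 had log2 fold changes of -0.16 and -0.47. Copz2, a coat subunit, fell; it had 5.37 and 9.79 CPM in the WT libraries and 0.308 and 0.199 CPM in the KO libraries (edgeR adjusted p = 0.0133); its relative Copz1 had a log2 fold change of -0.13. In each pair the called member was the one with the lower CPM in all 4 libraries. Tmed3 and Sec11c, a cargo receptor and a signal peptidase subunit, fell by 1.14 and 0.63. Of 25 disulfide isomerases and oxidases, Agr2, Txndc5 and Pdia5 fell, against 1.09% of all genes (median of the list -0.26). Txndc5 had 577 and 611 CPM in the WT libraries and 199 and 177 CPM in the KO libraries (log2 fold change -1.66, SE 0.165, edgeR adjusted p = 0.0103) and Pdia5 had 63.4 and 61.5 CPM in the WT libraries and 32.4 and 35.7 CPM in the KO libraries (log2 fold change -0.87, SE 0.102, edgeR adjusted p = 0.0152). P4hb, the abundant isomerase of all cells, had 2100.1 and 1936 CPM in the WT libraries and 1956 and 1694 CPM in the KO libraries, and its groups overlapped. Of 35 unfolded protein response genes, Creb3l4, Ern2 and Asns fell and 26 were lower without overlap, against 1.09% and 18.3% of all genes. Their median was -0.34. Asns, asparagine synthetase, had 114 and 112 CPM in the WT libraries and 67.2 and 55.7 CPM in the KO libraries (log2 fold change -0.88, SE 0.123, edgeR adjusted p = 0.0279), and Hspa5, the chaperone BiP, had 1412 and 1476 CPM in the WT libraries and 1342 and 946 CPM in the KO libraries (edgeR adjusted p = 0.604). The medians of these 3 lists stayed negative with each library left out in turn. They ranged from -0.31 to -0.11, from -0.4 to -0.15 and from -0.42 to -0.23.

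Of 40 enzymes of mucin O-glycosylation, 3 fell and 21 were lower without overlap, against 1.09% and 18.3% of all genes (median -0.45). Galnt5, which starts O-glycans, had 35.4 and 70.1 CPM in the WT libraries and 4.83 and 4.07 CPM in the KO libraries (log2 fold change -3.56, SE 0.37, edgeR adjusted p = 0.0142). Galnt12, another such enzyme, had 96 and 121 CPM in the WT libraries and 35.4 and 43 CPM in the KO libraries (log2 fold change -1.47, SE 0.158, edgeR adjusted p = 0.0134), and the fucosyltransferase Fut2 had 76.7 and 114 CPM in the WT libraries and 33 and 30.9 CPM in the KO libraries (log2 fold change -1.57, SE 0.18, edgeR adjusted p = 0.0144). The KO libraries were close to each other in all 3. Other starting enzymes were nearer between groups: Galnt1, Galnt4 and Galnt6 had log2 fold changes of 0.09, -0.32 and -0.09. The median of the glycosylation list was -0.59 without KO 1, -0.23 without KO 2, -0.24 without WT 1 and -0.43 without WT 2. Of 31 genes of vesicle traffic, 9 fell, against 1.09% of all genes (median -0.65). Rab27a and Rab27b, which dock secretory granules, had 34.5 and 55.8 CPM in the WT libraries and 7.81 and 4.87 CPM in the KO libraries and 38.3 and 82.2 CPM in the WT libraries and 9.25 and 9.33 CPM in the KO libraries respectively (-2.83 and -2.69 on the log2 scale, edgeR adjusted p = 0.0248 and 0.0429). Of 7 listed proteins that act with Rab27, 3 fell: Sytl2 by 3.73, Sytl4 by 1.56 and Myrip by 4.77. The other 4 were not called, with log2 fold changes of -0.28 for Sytl1, -2.71 for Sytl5, -0.50 for Exph5 and 0.52 for Unc13d. Syntaxins and their partners used by all cells did not separate in this way: Stx3, Stxbp2 and Vamp8 had log2 fold changes of 0.17, 0.09 and 0.03. The median of the traffic list was -0.65 without KO 1, -0.64 without KO 2, -0.88 without WT 1 and -0.45 without WT 2. Among 34 ion channel and fluid secretion genes 5 fell, against 1.09% of all genes. Besides Clca1 and Ano7 these were P2ry4, Kcnma1 and Scnn1a. Kcnma1 is the potassium channel that Lrrc26 tunes. Scnn1a, a subunit of the epithelial sodium channel, had 31 and 54.5 CPM in the WT libraries and 9.35 and 7.65 CPM in the KO libraries (log2 fold change -2.33, SE 0.29, edgeR adjusted p = 0.0248). Cftr, the chloride channel, had 222 and 269 CPM in the WT libraries and 195 and 185 CPM in the KO libraries (edgeR adjusted p = 0.501). In this list the median was -0.19. It was -0.04 without KO 1, -0.34 without KO 2, -0.32 without WT 1 and -0.02 without WT 2.

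Paneth cell genes were low in the KO libraries, with WT libraries far apart. Of 15 alpha-defensins tested, 5 fell and 14 were lower without overlap, against 1.09% and 18.3% of all genes (median -4.98). Defa22 had 584 and 1309.8 CPM in the WT libraries and 77.8 and 50.7 CPM in the KO libraries (log2 fold change -3.88, SE 0.566, edgeR adjusted p = 0.0429), and Defa29 had 138 and 121 CPM in the WT libraries and 12.6 and 6.95 CPM in the KO libraries (log2 fold change -3.73, SE 0.373, edgeR adjusted p = 0.0138). Defa21, Defa34 and Defa37 fell by 3.65, 4.98 and 4.58. Defa24, the most counted defensin, had 2238 and 13599.5 CPM in the WT libraries and 271 and 196 CPM in the KO libraries, and its WT values differed so much that it was not called (edgeR adjusted p = 0.201). Alpha-defensins are near-identical copies, so how reads were shared out among them is uncertain. Without WT 2, the library with the higher values in 13 of the 15, the median was -3.85, and without WT 1 it was -5.52. It was -5.34 without KO 1 and -4.49 without KO 2.

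Of 28 other genes listed as Paneth products, 4 fell, against 1.09% of all genes: Habp2, Copz2, Sntb1 and Nupr1 (median -2.25). Copz2 and Nupr1 are calls already given above under other lists. They were also present in colon crypts, with WT means of 9.19 and 110.5 CPM and KO means of 1.65 and 32.8 CPM. Habp2 and Sntb1 had colon WT means of 0.402 and 0.391 CPM. Habp2, a plasma serine protease, had 56.7 and 125 CPM in the WT libraries and 4.83 and 4.07 CPM in the KO libraries (log2 fold change -4.35, SE 0.407, edgeR adjusted p = 0.0104). Lyz1, the Paneth lysozyme, had 7132 and 6429 CPM in the WT libraries and 747 and 479.8 CPM in the KO libraries. Its WT values were close and its KO values about 10-fold lower, but it missed the threshold (log2 fold change -3.47, SE 0.563, edgeR adjusted p = 0.0519). Mmp7, which activates defensins, had 442 and 1202 CPM in the WT libraries and 88.6 and 57.6 CPM in the KO libraries (edgeR adjusted p = 0.0512), and Mptx2 had 1099 and 3858 CPM in the WT libraries and 79.4 and 28.6 CPM in the KO libraries (edgeR adjusted p = 0.0737). Ang4, an antimicrobial ribonuclease, had 342 and 6689 CPM in the WT libraries and 14.5 and 18.2 CPM in the KO libraries (edgeR adjusted p = 0.178). All 3 were highest in WT 2, lower in both KO libraries and not called. Pla2g2a overlapped between groups, at 82.4 and 9605 CPM in the WT libraries and 607 and 10.03 CPM in the KO libraries. Among the niche signals, Wnt3, the Wnt ligand of Paneth cells, had 12.9 and 19.7 CPM in the WT libraries and 1.23 and 2.88 CPM in the KO libraries (log2 fold change -2.97, SE 0.471, edgeR adjusted p = 0.051), and Egf had 3.42 and 4.3 CPM in the WT libraries and 0.822 and 1.09 CPM in the KO libraries (edgeR adjusted p = 0.126); both were lower without overlap and uncalled. Wnt11 was higher in both KO libraries, at 1.37 and 0.645 CPM in the WT libraries and 4.42 and 3.77 CPM in the KO libraries (edgeR adjusted p = 0.0998). The median of the Paneth products was -2.24 without KO 1, -2.23 without KO 2, -2.69 without WT 1 and -1.24 without WT 2.

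Enteroendocrine genes had lower values in the KO libraries, with WT libraries closer to each other than for Paneth or tuft genes. Of 12 hormones and enzymes of amine synthesis tested, 4 fell (1.09% of all genes did) and none rose (median -2.30). Gcg, the proglucagon gene of L cells, had 58.7 and 55.1 CPM in the WT libraries and 9.87 and 10.9 CPM in the KO libraries. The 2 libraries of each group nearly coincided (log2 fold change -2.45, SE 0.151, edgeR adjusted p = 0.00179). Pyy, peptide YY of the same cells, had 20.1 and 11 CPM in the WT libraries and 3.08 and 3.48 CPM in the KO libraries (log2 fold change -2.24, SE 0.31, edgeR adjusted p = 0.0279). Cck, cholecystokinin, had 4.49 and 7.21 CPM in the WT libraries and 0.617 and 0.894 CPM in the KO libraries (log2 fold change -2.93, SE 0.433, edgeR adjusted p = 0.0327), and Tph1, which makes serotonin, had 4.68 and 5.06 CPM in the WT libraries and 0.514 and 0.894 CPM in the KO libraries (log2 fold change -2.77, SE 0.394, edgeR adjusted p = 0.0279). In all 4 the groups did not overlap. Sst and Ghrl, somatostatin and ghrelin, had 12.9 and 7.64 CPM in the WT libraries and 2.36 and 1.49 CPM in the KO libraries and 4.39 and 2.47 CPM in the WT libraries and 0.617 and 0.596 CPM in the KO libraries respectively, and missed the threshold (edgeR adjusted p = 0.0503 and 0.0704). Tac1 overlapped, with 74.2 and 7.1 CPM in the WT libraries and 14.9 and 5.46 CPM in the KO libraries, WT 1 standing apart. Ddc, which is not restricted to endocrine cells, had 28.3 and 39.3 CPM in the WT libraries and 38.6 and 40.5 CPM in the KO libraries. Of the 12 hormones 4 were higher in WT 2 than in WT 1, against 13 of the 15 defensins. Of 25 granule and excitability genes, 5 fell, against 1.09% of all genes (median -1.67): Chgb, Cpe, Gfra3, Ptprn2 and Syt13. Ptprn2 differed from Gfra3 and Syt13 in the sorted Atoh1-GFP cells of the ileum, scaled over all 14 libraries. It had 66.7, 136 and 131 CPM there, against 30.7 and 76.5 CPM in the WT libraries. Gfra3 had 0.681, 0.245 and 1.43 CPM in the sorted cells and Syt13 had 0.17, 1.71 and 0.428 CPM. Chgb, chromogranin B, had 79.7 and 82 CPM in the WT libraries and 14 and 21.4 CPM in the KO libraries (log2 fold change -2.19, SE 0.295, edgeR adjusted p = 0.0279), and Cpe, the carboxypeptidase of prohormones, had 18.6 and 21.4 CPM in the WT libraries and 5.14 and 3.18 CPM in the KO libraries (log2 fold change -2.27, SE 0.231, edgeR adjusted p = 0.0104). Chga, chromogranin A, had 39.5 and 40.2 CPM in the WT libraries and 17.3 and 12.5 CPM in the KO libraries and was not called (edgeR adjusted p = 0.0654). Of 16 endocrine transcription factors, Insm1 alone was called, at 4.2 and 3.76 CPM in the WT libraries and 0.308 and 0.397 CPM in the KO libraries (log2 fold change -3.45, SE 0.388, edgeR adjusted p = 0.0142); Neurog3, the factor that starts the endocrine programme, had 1.85 and 2.37 CPM in the WT libraries and 0 and 0.0993 CPM in the KO libraries (edgeR adjusted p = 0.0561). The hormone median was -2.37 without KO 1, -2.22 without KO 2, -1.86 without WT 1 and -2.57 without WT 2. In the same order the granule median was -1.67, -1.78, -1.57 and -1.82, and that of the transcription factors -1.96, -1.88, -1.21 and -2.25. Of those 16 factors 10 were lower at an unadjusted p under 0.05 and DESeq2 called 3.

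Of 33 tuft cell genes tested none was called by edgeR, although the median was -2.88. At an unadjusted p under 0.05, 25 were lower, as were 1108 of all 14415 genes. DESeq2 called 20 lower, and 392 of the 14415. Without overlap 25 were lower, where 18.3% of all genes were. Dclk1, a kinase that marks tuft cells, had 5.86 and 109 CPM in the WT libraries and 0.514 and 0.794 CPM in the KO libraries, and Trpm5, their taste-pathway channel, had 7.91 and 93.7 CPM in the WT libraries and 3.19 and 3.38 CPM in the KO libraries. Avil, an actin-binding protein of tuft cells, had 5.07 and 81.2 CPM in the WT libraries and 1.85 and 1.99 CPM in the KO libraries. In each the 2 KO libraries were close to each other and below WT 1, and WT 2 stood more than 10-fold above WT 1. Their edgeR adjusted p-values were 0.185, 0.245 and 0.232. Pou2f3, the factor that specifies tuft cells, had 2.15 and 23.4 CPM in the WT libraries and 0.617 and 1.59 CPM in the KO libraries. Without WT 2 the list's median was -0.94, and without WT 1 it was -3.74. Without KO 1 it was -2.54, and without KO 2 it was -3.16. The size of the fall of the tuft genes therefore depended on which WT library was used.

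Outside the lists, 11 further genes were among the largest falls or the smallest adjusted p-values. Ramp1, which pairs with the calcitonin receptor-like receptor, had 11.7 and 26.5 CPM in the WT libraries and 0.514 and 0.497 CPM in the KO libraries (log2 fold change -5.20, SE 0.543, edgeR adjusted p = 0.0142). Rapgef3, a cyclic AMP-activated exchange factor, had 12.9 and 17.6 CPM in the WT libraries and 0.72 and 0.497 CPM in the KO libraries (log2 fold change -4.62, SE 0.361, edgeR adjusted p = 0.00343). Bambi, a decoy receptor of the BMP and TGF-beta pathways, had 11.8 and 17.4 CPM in the WT libraries and 0.617 and 0.497 CPM in the KO libraries (log2 fold change -4.69, SE 0.51, edgeR adjusted p = 0.0138). Wfikkn2, a secreted inhibitor of myostatin, had 8.1 and 8.5 CPM in the WT libraries and 0.411 and 0.298 CPM in the KO libraries (log2 fold change -4.50, SE 0.481, edgeR adjusted p = 0.0133). In these 4 genes the nearest WT and KO libraries were 9.44-fold to 12-fold apart, with 0.5 CPM added to each value. Slc2a10, a sugar transporter, and Hgfac, the activator of hepatocyte growth factor, fell by 4.75 and 2.90 (edgeR adjusted p = 0.0307 and 0.00267). Samd5, Rasd2, Rnf39, Klhdc8a and the fucosyltransferase gene Fut1 completed the 11, each with under 1 CPM in both KO libraries; WT 2 was the higher WT library for Samd5 and Klhdc8a. Ces1c, a carboxylesterase, was the 1 gene of lipid handling that fell, at 12.2 and 22.3 CPM in the WT libraries and 0.103 and 0.199 CPM in the KO libraries (edgeR adjusted p = 0.00673).

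The 19 genes called higher rose by less than 4-fold. Gprc5a, a retinoic acid-inducible orphan receptor, had 17.3 and 18 CPM in the WT libraries and 57.5 and 59.6 CPM in the KO libraries. Libraries of a group nearly coincided (log2 fold change 1.73, SE 0.121, edgeR adjusted p = 0.0026). The phospholipase Plb1 of the brush border had 51.1 and 33.9 CPM in the WT libraries and 154 and 135 CPM in the KO libraries (log2 fold change 1.76, SE 0.216, edgeR adjusted p = 0.0218), and Mme, the peptidase neprilysin, had 66 and 69.9 CPM in the WT libraries and 261 and 170.4 CPM in the KO libraries (log2 fold change 1.67, SE 0.206, edgeR adjusted p = 0.022). Ada, adenosine deaminase, had 73.2 and 50.8 CPM in the WT libraries and 208 and 144 CPM in the KO libraries, a 2.84-fold rise (SE 0.241 on the log2 scale, edgeR adjusted p = 0.0439). In these 3 the groups did not overlap, and WT values were at or below 73.2 CPM. Acsl5, which activates fatty acids, was the most counted of the 19, at 815 and 721 CPM in the WT libraries and 1503 and 1435 CPM in the KO libraries (log2 fold change 0.94, SE 0.119, edgeR adjusted p = 0.022). Por, the reductase that serves cytochromes P450, rose from 126 and 131 to 223 and 238 CPM, Cldn4, a tight junction claudin, from 19.1 and 15.1 to 39.3 and 40.3 CPM, and Ahcy, which breaks down S-adenosylhomocysteine, from 12.2 and 13.7 to 29.4 and 31.3 CPM (edgeR adjusted p = 0.0279, 0.0429 and 0.0144). Marcksl1, Rhbdl2, Ifrd1, Plxna2, Fam214b, Dnpep, Plekhh1 and 2010109I03Rik rose by 0.54 to 1.35 on the log2 scale, and Smoc2 and Mcm10 are described with the stem cell and cell cycle genes.

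Brush border and absorptive genes tended to be higher in the KO libraries by amounts that mostly missed the threshold. Of 34 genes listed as brush border enzymes, 4 rose (0.132% of all genes did), 24 were higher without overlap (22.1% of all genes were) and none had a negative log2 fold change (median 0.55). The 4 were Plb1, Mme, Ada and Ahcy, of which Ada and Ahcy are cytosolic enzymes. Alpi, the intestinal alkaline phosphatase, had 213 and 194 CPM in the WT libraries and 384 and 399.7 CPM in the KO libraries (edgeR adjusted p = 0.294). Sis, sucrase-isomaltase, had 1943 and 2229 CPM in the WT libraries and 3747 and 3053 CPM in the KO libraries (edgeR adjusted p = 0.519). The groups did not overlap for either. Anpep, aminopeptidase N, had 6745 and 2718 CPM in the WT libraries and 7909 and 7278 CPM in the KO libraries, so that WT 1 lay near the KO libraries and WT 2 apart. In lipid handling 1 of 48 genes rose, Acsl5, and 23 were higher without overlap, beside 0.132% and 22.1% of all genes (median 0.40). Fabp2, the fatty acid binding protein of enterocytes, had 1041 and 922 CPM in the WT libraries and 2416 and 2279 CPM in the KO libraries (edgeR adjusted p = 0.135), and Creb3l3, a factor that controls apolipoprotein genes, had 63.1 and 67.2 CPM in the WT libraries and 159 and 165 CPM in the KO libraries (edgeR adjusted p = 0.0557). Apob had 1784 and 1179 CPM in the WT libraries and 3046 and 2906 CPM in the KO libraries. None of 40 nutrient transporters was called by edgeR, though 8 were higher at an unadjusted p under 0.05 and 5 by DESeq2 (median 0.24), with Slc15a1, the peptide transporter, at 256 and 208 CPM in the WT libraries and 443 and 401 CPM in the KO libraries (edgeR adjusted p = 0.0704). Of 29 transcription factors of enterocytes and gut regions none was called by edgeR or DESeq2, with 1 lower and 4 higher at an unadjusted p under 0.05 (median 0.19); Hnf4a and Cdx2 had log2 fold changes of 0.23 and 0.10. WT 2 was the lower WT library for 25 of the 34 brush border genes. Their median was 0.33 without WT 2, 0.90 without WT 1, 0.55 without KO 1 and 0.67 without KO 2.

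Stem cell and Wnt target genes did not move together. Of 33 tested, edgeR called 1 higher and none lower, against 0.132% and 1.09% of all genes (median -0.14). At an unadjusted p under 0.05, 5 were lower and 3 higher, and DESeq2 called 2 lower and 1 higher. Over all 14415 genes these counts were 1108 lower and 821 higher, and 392 and 102 by DESeq2. Smoc2, a matrix protein of stem cells, had 124 and 127 CPM in the WT libraries and 178 and 196 CPM in the KO libraries (log2 fold change 0.57, SE 0.0931, edgeR adjusted p = 0.0429). Lgr5, the R-spondin receptor that marks stem cells, had 52.4 and 40.1 CPM in the WT libraries and 46.3 and 62 CPM in the KO libraries, and Ascl2, a stem cell factor, had 8.49 and 15 CPM in the WT libraries and 13.5 and 19.3 CPM in the KO libraries; the groups overlapped for both. Olfm4, a secreted protein of ileal stem cells, had 1453 and 1626 CPM in the WT libraries and 909 and 290.1 CPM in the KO libraries, lower in the KO libraries with a wide spread (edgeR adjusted p = 0.46). Axin2, a Wnt target, had 137 and 125 CPM in the WT libraries and 119 and 105 CPM in the KO libraries. Of 54 cell cycle and replication genes 1 rose and 36 were higher without overlap, against 0.132% and 22.1% of all genes (median 0.25). Mcm10, which loads replication factors, had 58.5 and 59.6 CPM in the WT libraries and 83.2 and 93.1 CPM in the KO libraries (log2 fold change 0.58, SE 0.0983, edgeR adjusted p = 0.0467). Mki67, a marker of cycling cells, had 434 and 453 CPM in the WT libraries and 555 and 598 CPM in the KO libraries (edgeR adjusted p = 0.175), and Ccnb1, cyclin B1, had 18.1 and 21.6 CPM in the WT libraries and 30.1 and 34.7 CPM in the KO libraries (edgeR adjusted p = 0.0916). The median of the cell cycle list stayed between 0.19 and 0.34 without each library in turn, and neither Smoc2 nor Mcm10 was called without KO 1, without KO 2 or without WT 2.

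Several lists held no call by edgeR: the 49 interferon and antigen presentation genes (median 0.29), 40 immune cell genes (-0.16), 22 stromal, vessel, nerve and muscle genes (-0.91), 50 oxidative phosphorylation genes (-0.06), 58 cytosolic ribosomal proteins (-0.07), 23 cholesterol synthesis genes (-0.08), 22 immediate early genes (0.15), 19 clock genes (0.03), 12 epithelial genes (0.21), 6 membrane mucins (0.31) and 16 colon region genes (-0.01). At an unadjusted p under 0.05 these lists had, in the same order, 1, 5, 0, 0, 0, 0, 4, 1, 5, 0 and 2 genes, and DESeq2 called 1, 1, 0, 0, 0, 0, 2, 0, 1, 0 and 2. Several of them turned on the WT library used. Without WT 1 the medians of the first 3 were 0.91, 2.08 and 0.68, and without WT 2 they were -0.10, -0.90 and -1.14. Membrane mucins had medians of 1.20 without WT 1 and -0.15 without WT 2. Oxidative phosphorylation genes had -0.22 and 0.11 in the same order, and immediate early genes 0.44 and -0.03. Epithelial genes had 0.33 and 0.13, colon region genes 0.32 and 0.0, and clock genes 0.09 and 0.07. Gzma, a granzyme of intraepithelial lymphocytes, shows the pattern, at 101 and 15.3 CPM in the WT libraries and 100.2 and 98.9 CPM in the KO libraries. WT 1 was level with both KO libraries and WT 2 far below. Cd74, the invariant chain of antigen presentation, had 2192 and 654 CPM in the WT libraries and 1902 and 1647 CPM in the KO libraries, the same order. In the other lists with a call, 1 of 36 inducible antimicrobial genes fell (Fut2, also listed there, list median -0.21). Among 23 claudin and junction genes 1 rose (Cldn4, list median 0.20). Of 49 xenobiotic and redox genes 1 rose (Por, list median 0.21), and of 16 ileum region genes 1 rose (Ada, list median 0.58). Over all genes 1.09% fell and 0.132% rose. Reg3b and Reg3g, the C-type lectins of enterocytes and Paneth cells, had 23741 and 7743 CPM in the WT libraries and 19037 and 14463 CPM in the KO libraries and 13597 and 5009.9 CPM in the WT libraries and 10976 and 8891 CPM in the KO libraries respectively, and overlapped between groups. Slc10a2, the ileal bile acid transporter, had 309 and 126 CPM in the WT libraries and 449 and 333 CPM in the KO libraries and was not called.

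**Figure D4:**
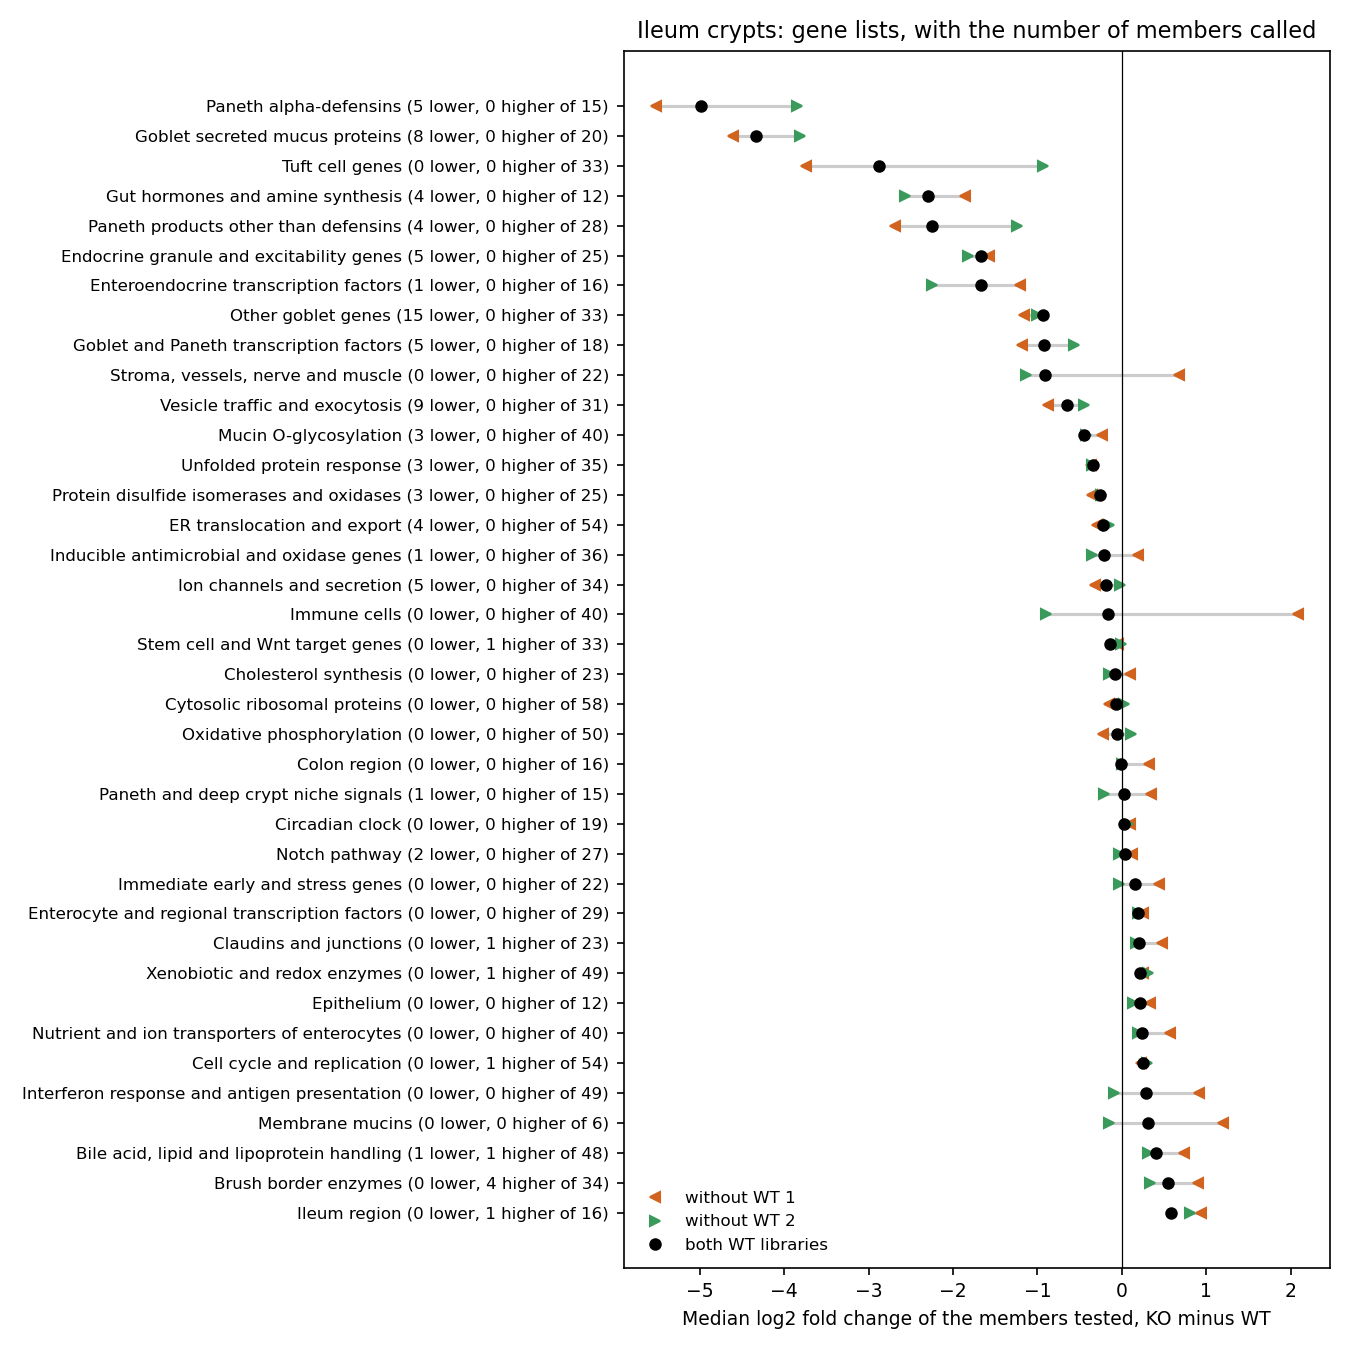
Median log2 fold change, KO minus WT, of the tested members of each list in ileum crypts with both WT libraries (circles), without WT 1 (left-pointing triangles) and without WT 2 (right-pointing triangles); labels give the members called. Lists that stay below 0 in all 3 include goblet products, Paneth products, defensins, hormones, endocrine granule genes and tuft genes. The tuft median lies between -3.74 and -0.94, and the immune list moves from -0.90 to 2.08.

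The same contrast in colon crypts, made of other libraries, showed how far the ileum calls extended. Whether an ileum and a colon library came from the same animal is not stated; deviations of same-numbered ileum and colon libraries from their group means correlated at 0.31 in KO and 0.27 in WT, over genes, and the fit has no term for this. In colon 22 genes were called (0.153%). Of the 157 genes called lower in ileum, 151 had lower fitted values in colon, where 48.5% of all genes did, with a median of -1.22, and 16 were called lower there, which is 10.2% of the ileum genes and 72.7% of the genes called in colon. Atoh1 in colon had WT levels of 81.1 and 58.3 CPM and KO levels of 6.7 and 7.62 CPM (log2 fold change -3.28, edgeR adjusted p = 0.00515), so it fell in both tissues; the difference of the falls was not called (edgeR adjusted p = 0.436). Tff3 and Hepacam2 also fell in colon, with log2 fold changes of -3.36 and -3.14 (edgeR adjusted p = 0.0301 and 0.00686). Bambi, which fell in ileum, had 2.69 and 6.42 CPM in colon WT and 4.56 and 4.26 CPM in colon KO (log2 fold change -0.06), and Habp2 had a log2 fold change of 0.20. Plb1 was scarcely detected in colon, with WT levels of 0.673 and 0.446 CPM and KO levels of 0.279 and 0.635 CPM. A test of the difference of the KO effect between the tissues called 1 of 14415 genes (0.00694%), Anxa13; for Bambi, Habp2 and Plb1 the difference was not called (edgeR adjusted p = 0.314, 0.910 and 1.00). At an unadjusted p under 0.05 the same test had 563 genes (3.91%), and DESeq2 called 52; edgeR called 335 without ileum WT 1 and 4 without ileum WT 2.

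**Figure D5:**
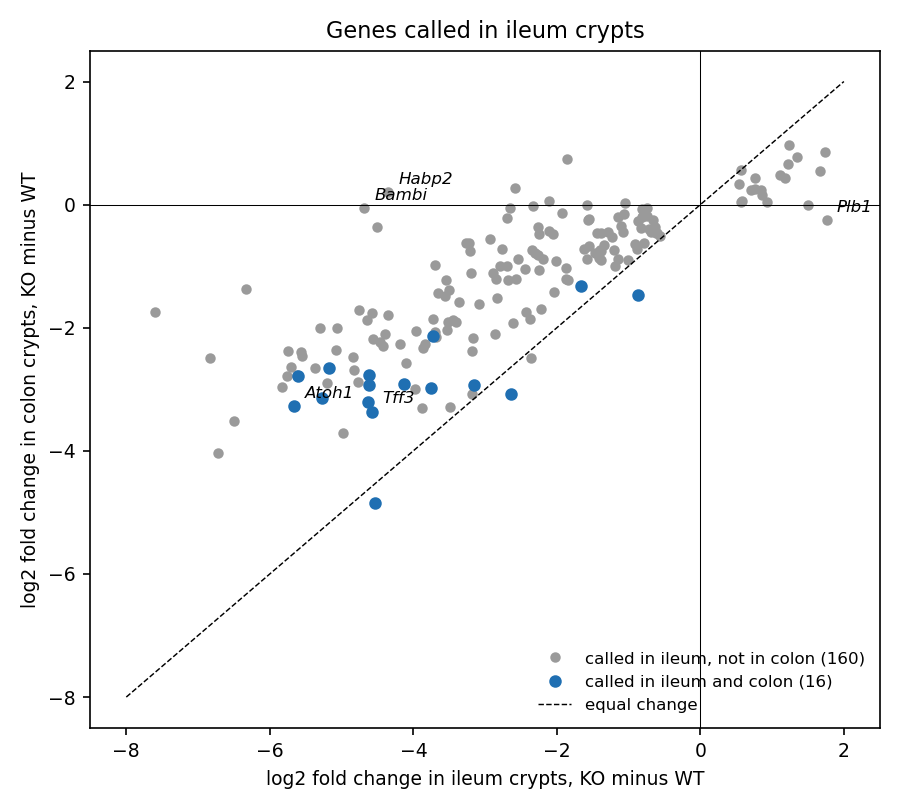
Log2 fold change in colon crypts against that in ileum crypts, KO minus WT, for the 176 genes called in ileum; blue points were also called in colon (16), and the dashed line marks equal change. Most genes called lower lie above the line. They were chosen by their fall in ileum, so the smaller fitted fall in colon cannot be read as a difference between tissues.

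Sorted Atoh1-GFP cells of the ileum (3 libraries from Atoh1GFP/GFP mice) give the level of these genes in cells that express Atoh1. In GFP 1, 52.3% of uniquely placed reads were in no gene, against 27.8% and 31.25% in the others. Scaled over all 14 libraries, Tff3 had 3773, 11502 and 9249.7 CPM in the sorted cells, 772 and 731 CPM in the WT libraries and 41.4 and 20.3 CPM in the KO libraries. Gprc5a had 0.341, 0.612 and 0.857 CPM in the sorted cells, 13.5 and 13.9 CPM in the WT libraries and 43.7 and 45.1 CPM in the KO libraries. Mme had 2.72, 5.02 and 3 CPM in the sorted cells, 51.5 and 54 CPM in the WT libraries and 198 and 129 CPM in the KO libraries. Gcg had 9.71, 2.08 and 5.14 CPM in the sorted cells, against 45.8 and 42.5 CPM in the WT libraries and 7.5 and 8.27 CPM in the KO libraries. Thus the mucus peptide was highest in the sorted cells, Gprc5a and Mme lowest there, and Gcg lower there than in WT crypts.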

How the data were processed

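RNA-seq of 4 ileum and 4 colon crypt libraries and of sorted Atoh1-GFP cells was used. Per the submitters' processing notes, the authors aligned reads with TopHat 1.4.1 to mm9 and counted them with HTSeq; the deposited values are raw counts per Ensembl gene, while no source used here gives the annotation release, HTSeq version or strandedness, so overlapping and antisense genes are uncertain. Rows that name no gene were left out; in the ileum crypt libraries 9.3% to 13.25% of uniquely placed reads were in no gene. Groups followed the titles. Counts of the 8 crypt libraries were fitted with edgeR 4.0.16 (quasi-likelihood test, trimmed mean of M-values, filterByExpr, robust, no covariate) in R 4.3.3, p-values were adjusted by Benjamini-Hochberg over 14415 genes, and SE is the log2 fold change over the square root of F. The fits were tested on simulated data. Symbols came from a table for a later build. Named genes are members of 38 gene lists, all genes called higher, and, outside the lists, the 30 largest falls and the 10 smallest adjusted p-values among genes with an established symbol whose groups did not overlap and whose higher mean reached 5 CPM, genes whose effect differed between tissues, and 6 genes per direction that differed most between replicates. Some genes that the rule names are not reported here. The members and lists were chosen with earlier results of these data known. Alternatives were other scalings, no filter, DESeq2 1.42.0, other sets of libraries, a replicate block and each library left out.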

Additional observations from a re-analysis of the deposited data

Results flagged for a closer look

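Anxa13, an annexin of the intestinal epithelium, was picked out because the effect of the knockout differed between ileum and colon crypts. In ileum it had 147 and 145 CPM in the WT libraries and 239 and 231 CPM in the KO libraries and was not called (log2 fold change 0.69, SE 0.129, edgeR adjusted p = 0.0623). In colon it had 15.6 and 21.1 CPM in the WT libraries and 0.837 and 0.817 CPM in the KO libraries, and it fell there (log2 fold change -4.46, edgeR adjusted p = 0.00143). The difference of the log2 fold changes, ileum minus colon, was 5.15 (SE 0.252, edgeR adjusted p = 0.00179). Both KO libraries lay above both WT libraries in ileum and below both WT libraries in colon. Of 14415 genes it was the only one that this test called.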

How the results depend on the processing

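In place of 176 genes called, 157 lower and 19 higher, DESeq2 called 503, 401 and 102. All 14 libraries gave 265 in all with 249 lower. The 4 ileum libraries alone gave 4, 4 and 0 (1217 at an unadjusted p under 0.05). That fit had fewer residual degrees of freedom and a larger spread between libraries. Its biological coefficient of variation was 0.25, against 0.2 in the main fit, whose estimate also drew on the colon crypts. The part of each was not tested. Without the filter 46 were higher. Leaving out one library at a time gave 11 to 1403 calls, 9 to 753 lower and 2 to 650 higher. None of the 176 changed sign under any alternative. Besides Atoh1, genes named in the text had 90 called results, of which 1 is the difference between tissues for Anxa13. EdgeR did not call 27 of the 90 with all 14 libraries, 16 without the filter and 11 with the block. Leaving the most counted genes out of the library sizes lost 4. The 4 ileum libraries alone, which give no difference between tissues, lost 87. Most were not called without KO 1 or without KO 2, and some were not called without WT 2. Members of the lists numbered 73 calls, and 9 to 298 with one library left out. The difference between tissues called 1 gene, 9 without the filter, 52 with DESeq2 and 1 to 335 with one library left out. Colon had 22 calls, 56 without the filter, 158 with DESeq2 and 73 with all 14 libraries. With the replicate number as a block, 201 genes were called, 180 lower and 21 higher, and Atoh1 fell by 5.67 on the log2 scale (edgeR adjusted p = 0.00152). The labels do not say that numbers pair the libraries: the deviations of KO 1 and WT 1 from their group means correlated at 0.08 over genes, which are not independent, while those of same-numbered ileum and colon libraries correlated at 0.31 in KO and 0.27 in WT. Atoh1 was called under every alternative, at -6.19 to -5.26 with one library left out. At this depth genes near 1 CPM had about 10 counts a library. Uncalled genes whose log2 fold change changed sign or came to 0 with one library left out ranged as follows: Cd74 (-0.3 to 1.44), Cdx2 (0 to 0.22), Ddx3y (-8.79 to 0.04), Dll4 (-0.25 to 0.41), Elf3 (-0.17 to 0.03), Fabp6 (-0.01 to 1.04), Foxa1 (-0.37 to 0.01), Galnt1 (-0.05 to 0.23), Galnt6 (-0.19 to 0.01), Gzma (-0.02 to 2.7), Igkc (-2.36 to 4.18), Jchain (-2.59 to 3.59), Pla2g2a (-8.91 to 1.91), Plet1 (-1.15 to 7.51), Rbpj (-1.12 to 0.26), Reg3b (-0.5 to 1.11), Reg3g (-0.44 to 0.99), Tac1 (-2.89 to 0.52), Unc13d (-0.06 to 1.55), Vamp8 (-0.05 to 0.13) and Xist (-0.64 to 7.76). With all 14 libraries Dll4 and Vamp8 came to 0, and the replicate block turned the sign of Plet1, to 0.27. The causes were not tested.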
